A study of Mus musculus with 48 samples.

Results

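Gene expression in the medial prefrontal cortex (mPFC) was compared between stressed mice with ovaries and unstressed mice without ovaries, on the 8 mPFC arrays of the series that lay together on 1 slide and held both kinds of mouse. They are 8 of the 48 arrays of the series, which cover mPFC and whole blood of the same animals. The 4 CUMS mice (the labels' stress group, numbers 3, 4, 5 and 6) had a sham operation and then chronic ultra-mild stress made of a weekly schedule of mild disturbances, among them tilted, small or soiled cages, lights left on at night and a reversed light-dark cycle at weekends. The 4 OVX mice (numbers 1, 2, 3 and 4) were bilaterally ovariectomized and were not stressed. All 8 were female C57BL/6J mice, 17 weeks old, and each array holds the RNA of 1 mouse. The mPFC was cut out of a coronal brain slice under a stereoscopic microscope, so each sample is a mixture of cell types, and fewer cells of a type cannot be told apart from less RNA per cell.

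The 2 groups differed in both factors at once, the operation and the stress, and no control or OVX+CUMS array lay on this slide. A difference between them is therefore that of stress with ovaries against ovariectomy without stress, and it cannot be divided between the factors. The CUMS arrays filled row 1 of the slide and the OVX arrays row 2, as the array positions in the file headers show, so that group and slide row cannot be told apart either. Differences are given throughout as CUMS minus OVX on the log2 scale of the array signal, where 1 is a doubling and 0 is the 75th percentile of all probes of an array.

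The mPFC takes part in the control of the stress response and carries receptors for glucocorticoids and for ovarian steroids. Its neurons lie in layers with their own marker genes, and its white matter contributes myelin transcripts of oligodendrocytes. Neuronal activity switches on immediate early genes within minutes, among them Arc, whose protein acts at synapses, and Fos and Egr1, which encode transcription factors. Many promoters of such genes hold the core TGACG of the cAMP response element, which binds CREB. Many interferon-stimulated genes share a response element in their promoters, and clock genes such as Per1 and Cry1 hold E-boxes bound by CLOCK and BMAL1.

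The 75th percentile of the processed signal was between 615 and 632 in the CUMS arrays and between 599 and 633 in the OVX arrays, in arbitrary units of intensity. Of the 55681 probes, 33758 to 36518 were well above background on a CUMS array and 32207 to 33626 on an OVX array, without overlap, and 30343 were so on all 8. Row 1 held more such probes than row 2 on the other 2 mPFC slides too, without overlap. The ranges were 36114 to 38053 against 31551 to 34305 on the slide with the control mice. They were 34663 to 36680 against 32374 to 34249 on the slide with the OVX+CUMS mice. Group and row cannot be told apart in the difference in detection on the present slide. The part of this difference in detection in the results was not tested. These probes included 15453 genes with a current symbol, each represented below by its brightest probe unless stated. The cortical markers fixed for this tissue were all measured, with Slc17a7, Camk2a, Tbr1 and the other 5 markers of excitatory neurons differing by a median of 0.01. That median depends on the probe taken, since Camk2a differed by 0.00 at its brightest probe and by 0.31 (SE 0.09) at a dimmer one. The array-to-array SD of the log2 differences over the tested probes had a median of 0.277 for pairs of mice of the same group and 0.290 for pairs of different groups.

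No probe passed the adjusted threshold of 0.05 (limma, Benjamini-Hochberg over 30343 probes, 0% called), and the lowest adjusted p was 0.0577, shared by Mfap4, Arc, 2810021J22Rik and Itga10. At an unadjusted p under 0.05, 4786 probes (15.8%) differed, of which 2111 were higher and 2675 lower in CUMS mice. The count of calls lay at the edge of the threshold. Of the alternatives with the same detection filter and the same arrays, normexp background correction called 168 probes, quantile normalization 10 and the percentile taken over detected probes 3. Scaling by the spike-in probes called 0 and changed the split at the unadjusted p to 668 higher and 3153 lower, and quantile normalization changed it to 2858 higher and 1999 lower. Without OVX mouse 2 the count was 22, and without OVX mouse 4 it was 2. Among the 15453 genes, 7.99% were higher and 9.54% lower at an unadjusted p under 0.05, and these shares are the background for every count given below. In 5.14% of genes all 4 CUMS arrays lay above all 4 OVX arrays, and in 7.27% all lay below. The median difference over all genes was -0.01. For a single gene with no overlap the exact two-sided permutation p is 0.0286, which is the smallest that 70 splits of 8 arrays can give.

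Arc had the largest difference of the genes at the lowest adjusted p. Its log2 signal was 4.83, 4.79, 4.97 and 4.69 in the CUMS arrays and 3.12, 3.72, 3.62 and 3.38 in the OVX arrays. All 4 CUMS values lay well above the highest OVX value, 3.72. The difference of 1.36 (SE 0.13) is a 2.57-fold higher signal, with an adjusted p of 0.0577 (limma) and an exact permutation p of 0.0286. Over the alternatives the adjusted p of Arc was between 0.0222 and 0.479 (limma). It was 0.0374 without OVX mouse 2, so that the call depended on 1 library as well as on the processing. With slide row as a term over all 24 mPFC arrays, an alternative added after the data were seen, the difference was 1.10 (SE 0.40, adjusted p = 0.456, limma). The gene lies on chromosome 15 at 74669081 to 74672570 (GRCm38.p6).

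Mfap4, which encodes a protein of extracellular microfibrils, was between -0.96 and -0.89 in the CUMS arrays and between -1.71 and -1.47 in the OVX arrays, a difference of 0.68 (SE 0.06). Itga10, an integrin that binds collagen, differed by 0.50 and 2810021J22Rik by 0.41, both with an adjusted p of 0.0577. The other 8 of the 12 genes of lowest p on the higher side were Ifitm6 (0.64), Klhdc8b (0.35), Atp6v0a4 (0.78), C2cd4a (0.47), Tnfrsf25 (0.77), Pdp1 (0.38), Cpne9 (0.57) and Zfhx4 (0.63). Ifitm6 belongs to the interferon-induced transmembrane family, Tnfrsf25 is a death-domain receptor of the TNF receptor family, and Pdp1 is the phosphatase that activates pyruvate dehydrogenase. Their adjusted p-values lay between 0.0629 and 0.0759, and in all 12 genes the groups did not overlap.

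On the lower side, Padi6, a member of the peptidylarginine deiminase family best known from oocytes, was -0.60, -0.76, -0.52 and -0.36 in the CUMS arrays and 0.17, 0.29, 0.35 and 0.34 in the OVX arrays. The difference of -0.85 (SE 0.09) had an adjusted p of 0.0586. Rgs9, a regulator of G protein signalling that is abundant in striatum, was lower in all 4 CUMS arrays than in any OVX array, by -0.51 at its probe of lowest p and by -0.47 at its brightest probe. Glra2, a glycine receptor subunit, differed by -0.62, Gdpd5 by -0.41, and Vangl2, a planar cell polarity gene, by -0.35. The remaining 7 genes of lowest p on this side were Lcmt2 (-0.47), Igsf21 (-0.34), 9630001P10Rik (-0.76), Fndc10 (-0.36), Neu2 (-0.42), Xpa (-0.38) and Srsf5 (-0.39). Srsf5 is a splicing factor and Xpa a DNA repair gene.

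Most immediate early genes were higher in the CUMS mice. Of 27 genes on the list, 26 were measured, and 19 of them were higher at an unadjusted p under 0.05 and 0 lower, against 7.99% and 9.54% of all genes. In 10 of the 26 the groups did not overlap, all with the CUMS mice higher, against 5.14% of all genes. The median difference over the 26 was 0.44, against -0.01 over all genes, and the 26 ranged from -0.25 for Nr4a2 to 1.36 for Arc. None passed the adjusted threshold. The count depended on the design of the fit: over all 24 mPFC arrays with a block for the slide it was 13 higher and 0 lower, and it was 5 higher and 1 lower when slide row was added as a term, with a median of 0.332. Whether these mice had been through the behavioural tests of the study was not given in the sources used here.

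**Figure D1:**
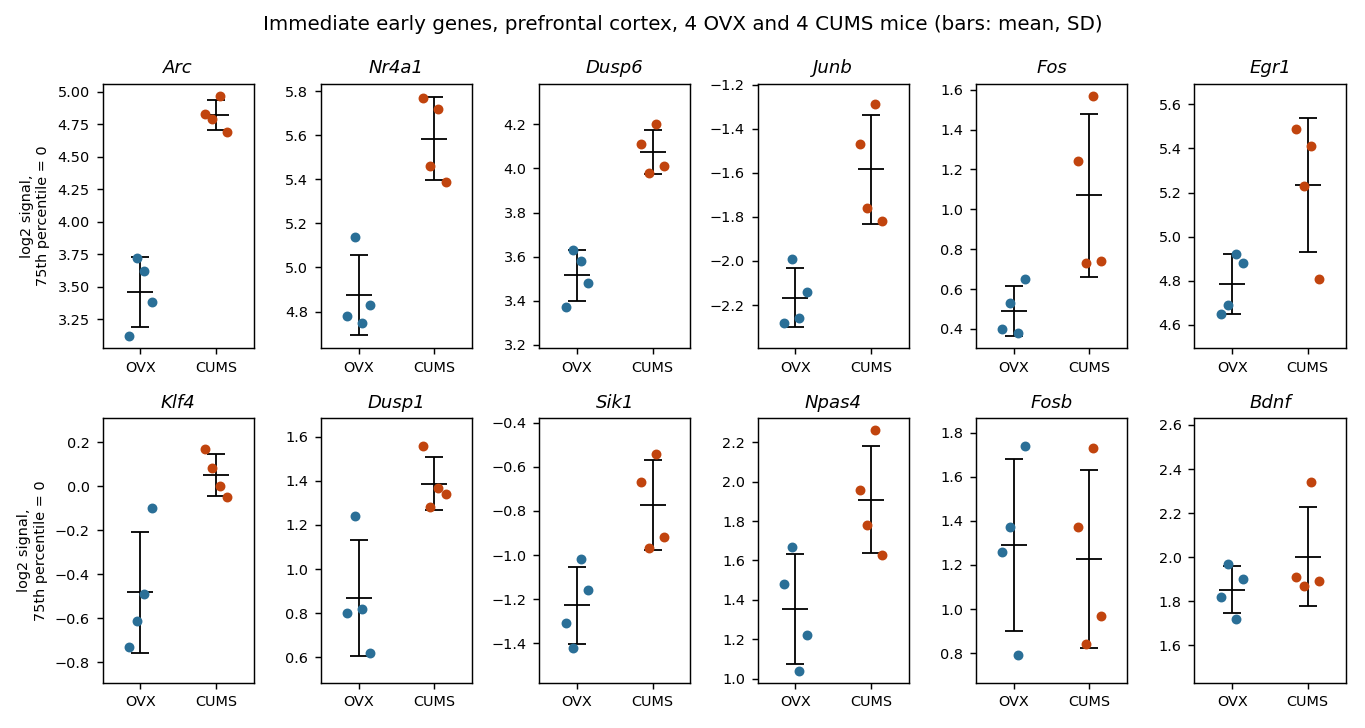
Log2 signal of 12 immediate early genes in each of 4 OVX (blue) and 4 CUMS (red) mPFC arrays, scaled so that 0 is the 75th percentile of an array, with bars for the group mean and SD. All 4 CUMS points lie above all 4 OVX points for Arc, Nr4a1, Dusp6, Junb, Fos, Klf4, Dusp1 and Sik1, while the groups overlap for Egr1, Npas4, Fosb and Bdnf.

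Nr4a1, an orphan nuclear receptor gene of the early response, had log2 signals of 5.77, 5.46, 5.72 and 5.39 in the CUMS arrays and 4.78, 5.14, 4.75 and 4.83 in the OVX arrays. Dusp6, which encodes a phosphatase that inactivates ERK, had 4.11, 3.98, 4.20 and 4.01 against 3.37, 3.63, 3.58 and 3.48. The differences were 0.71 (SE 0.12, adjusted p = 0.0899) and 0.56 (SE 0.07, adjusted p = 0.0759), or 1.63-fold and 1.47-fold. Junb, an AP-1 subunit, differed by 0.58 (SE 0.13, adjusted p = 0.109) without overlap. Among the members singled out after their values were seen, Ier5 differed by 0.35, Klf4 by 0.53, Dusp1 by 0.52 and Sik1 by 0.46, each without overlap.

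Fos, the classical marker of recent neuronal activity, was 1.24, 0.73, 1.57 and 0.74 in the CUMS arrays and 0.40, 0.53, 0.38 and 0.65 in the OVX arrays. The CUMS mice fell into a higher and a lower pair, and the lower pair stood only just above the highest OVX value. Its difference was 0.58 (SE 0.19, adjusted p = 0.208). Egr1, another transcription factor gene of the early response, differed by 0.45 (SE 0.15, adjusted p = 0.214), with the lowest CUMS value, 4.81, inside the OVX range of 4.65 to 4.92. Not every member stood apart in this way. Fosb was between 0.84 and 1.73 in the CUMS arrays and between 0.79 and 1.74 in the OVX arrays, Bdnf differed by 0.15 (adjusted p = 0.56), and Nr4a2, the close relative of Nr4a1, by -0.25 (adjusted p = 0.548).

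Promoter sequence was in the RefSeq table (GRCm38.p6) for 20 of the 26 genes, Arc not among them. The letters TGACG, on either strand, were in 18 of the 32 listed promoters of these genes (56.2%), each reaching from 250 bases before to 50 bases after a start site, and in 20.8% of all 32851 promoters. Stretches before the start site of 5 members are shown, 5′ to 3′ on the gene's strand, to let the element be seen in members of the list. Capitals mark TGACG or its complement.
Fos, chr12:85473736-85473853, plus strand: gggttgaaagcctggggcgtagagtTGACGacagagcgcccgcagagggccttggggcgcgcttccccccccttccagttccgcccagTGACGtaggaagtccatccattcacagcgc
Nr4a1, chr15:101266596-101266835, plus strand: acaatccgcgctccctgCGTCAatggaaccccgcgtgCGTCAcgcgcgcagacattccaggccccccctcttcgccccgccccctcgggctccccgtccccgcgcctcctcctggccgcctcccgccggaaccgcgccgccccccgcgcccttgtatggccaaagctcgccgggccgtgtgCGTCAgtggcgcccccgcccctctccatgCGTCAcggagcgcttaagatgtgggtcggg
Junb, chr8:84978825-84978879, minus strand: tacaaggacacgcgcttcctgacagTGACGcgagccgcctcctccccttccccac
Dusp1, chr17:26508583-26508688, minus strand: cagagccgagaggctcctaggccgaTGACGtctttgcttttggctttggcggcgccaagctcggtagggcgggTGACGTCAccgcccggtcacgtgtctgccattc
Npas4, chr19:4990111-4990175, minus strand: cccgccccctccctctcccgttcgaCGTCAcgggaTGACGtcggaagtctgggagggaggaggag
Of these 5 genes, 4 had no overlap between the groups, and Npas4 (1.96, 1.78, 2.26 and 1.63 in the CUMS arrays, 1.48, 1.67, 1.04 and 1.22 in the OVX arrays) overlapped by 1 value. The 5 are examples, and 10 of all 26 measured members had no overlap. Bdnf, Fosb and Nr4a2, which overlapped between the groups, held the letters in a listed promoter too. A match of letters is a description of the window and was not tested against the levels.

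Deep-layer markers were lower in the CUMS mice. Of 10 deep-layer genes, all measured, 9 were lower in the CUMS mice at an unadjusted p under 0.05 (background 9.54%), 5 of them without overlap, and 0 were higher. Their median difference was -0.37. With slide as a block over all 24 mPFC arrays, 4 of the 10 were lower at that p, with the differences unchanged and the spread taken from all 24 arrays. Ntsr1, a neurotensin receptor that marks corticothalamic neurons of layer 6, was 1.49, 1.65, 1.52 and 1.59 in the CUMS arrays and 2.10, 1.84, 1.94 and 2.01 in the OVX arrays (difference -0.41, SE 0.07, adjusted p = 0.0863). Foxp2, a transcription factor gene of deep layers and striatum, was between -3.14 and -2.97 against between -2.67 and -2.05. Its difference was -0.73 (SE 0.12, adjusted p = 0.0899), and a second probe of the gene gave -0.70. Rprm differed by -0.54 and Bcl11b, a transcription factor of subcerebral projection neurons, by -0.33, both without overlap. Etv1, which marks layer 5, was the exception at 0.04.

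Of the 8 upper-layer markers, 3 were higher in the CUMS mice at an unadjusted p under 0.05 and 0 lower, with a median of 0.10. The mean level of the list was between 0.0366 and 0.0882 in the CUMS arrays, and OVX mouse 2, at 0.107, lay above all of them. Cux2 was 2.72, 2.74, 2.53 and 2.65 in the CUMS arrays and 2.33, 2.46, 2.17 and 2.04 in the OVX arrays, a difference of 0.41 (SE 0.09, adjusted p = 0.12). Rasgrf2 differed by 0.39 (adjusted p = 0.107) without overlap, Rorb by 0.28 (adjusted p = 0.254) and Stard8 by 0.20 (adjusted p = 0.341). The other 4 markers, Cux1, Calb1, Lamp5 and Otof, lay between -0.11 and 0.00. The median of this list was 0.18 without OVX mouse 2 and 0.0405 without OVX mouse 3.

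Myelin transcripts were lower in the CUMS mice. Of 18 oligodendrocyte genes, 17 were measured, of which 13 were lower at an unadjusted p under 0.05 (background 9.54%), 11 of these without overlap, and 1 was higher. The median was -0.39. With slide as a block over all 24 mPFC arrays, 3 were lower at that p, with the differences unchanged and the spread taken from all 24 arrays. Cnp, an enzyme of the myelin sheath, was 2.49, 2.53, 2.32 and 2.45 in the CUMS arrays and 2.77, 2.76, 3.25 and 3.05 in the OVX arrays (difference -0.51, SE 0.11, adjusted p = 0.116). Cldn11 (-0.43) and Mag (-0.63), which encode further proteins of the sheath, had adjusted p-values of 0.119 and 0.13 and no overlap. Opalin had the widest difference of the list, -0.81 (SE 0.23, adjusted p = 0.172). For Cnp, Cldn11 and Mag, OVX mice 3 and 4 had the highest values, and OVX mice 1 and 2 stood closer to the CUMS range. Mbp, which encodes myelin basic protein, depended on the probe: its brightest probe differed by 0.28, another by 0.35 and the last by -0.50, and the arrays do not tell which transcript forms these probes measured. The oligodendrocyte precursor list, with 7 measured genes and a median of 0.00, held 1 gene past the unadjusted threshold, Bcas1 (-0.38), which is also a gene of maturing oligodendrocytes.

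**Figure D2:**
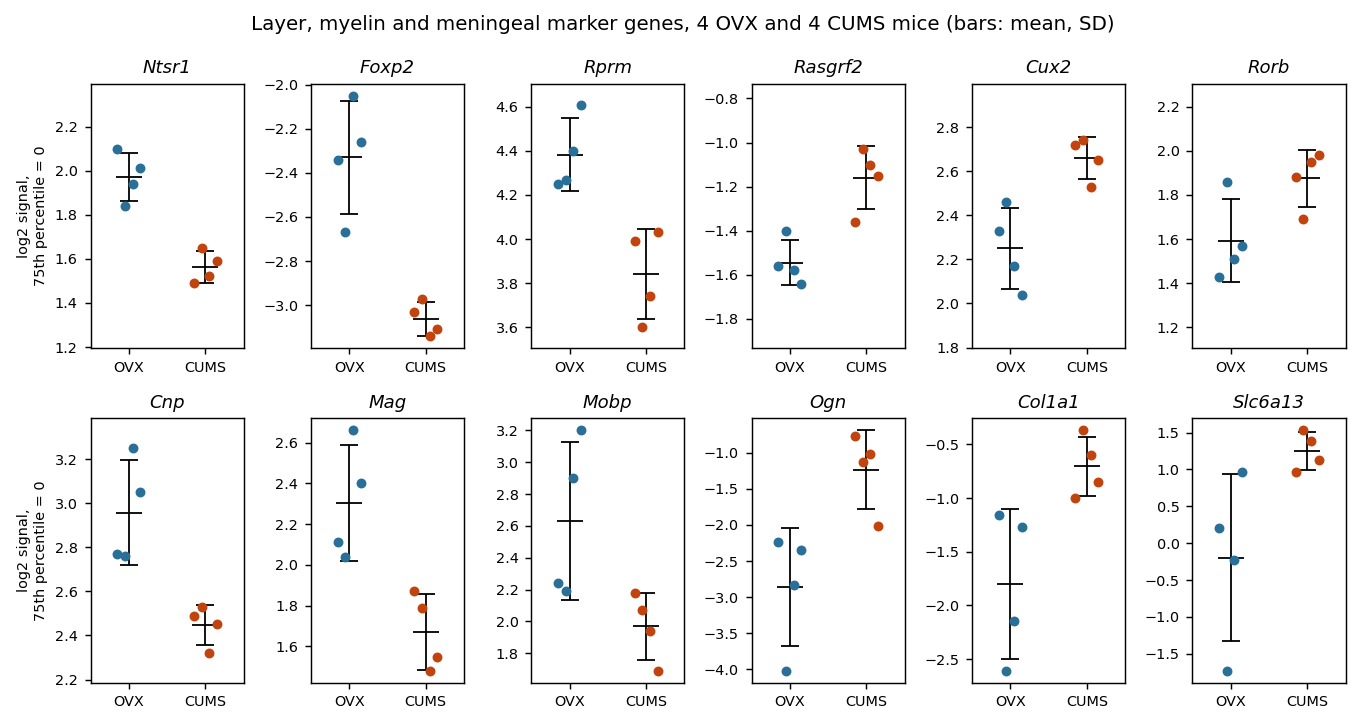
Log2 signal of 3 deep-layer genes (Ntsr1, Foxp2, Rprm), 3 upper-layer genes (Rasgrf2, Cux2, Rorb), 3 myelin genes (Cnp, Mag, Mobp) and 3 meningeal genes (Ogn, Col1a1, Slc6a13) in each of 4 OVX (blue) and 4 CUMS (red) mPFC arrays, with bars for the mean and SD. The CUMS points are lower for the deep-layer and myelin genes drawn and higher for the upper-layer genes drawn, with overlap for Rorb. The upper-layer genes drawn are the 3 past an unadjusted p under 0.05. Of all 8 upper-layer markers, 5 had a positive and 3 a negative difference, with a median of 0.10. Mbp, a myelin gene not drawn, differed by 0.28 at its brightest probe. The meningeal genes spread far more among the OVX arrays, down to -4.02 for Ogn in OVX mouse 2.

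Genes of the meninges, the membranes that cover the cortex, had higher means in the CUMS mice and were uneven among the OVX mice. All 9 measured members of the list had a positive difference, with a median of 1.09, and 3 passed an unadjusted p under 0.05. Ogn, a small proteoglycan of connective tissue, was -0.77, -1.13, -1.02 and -2.02 in the CUMS arrays and -2.23, -4.02, -2.83 and -2.35 in the OVX arrays (difference 1.62, SE 0.42, adjusted p = 0.15). Col1a1, a chain of collagen I, differed by 1.09 (SE 0.33, adjusted p = 0.186). Slc6a13, a GABA transporter of leptomeninges, ranged from 0.96 to 1.53 in the CUMS arrays and from -1.73 to 0.97 in the OVX arrays, so that OVX mouse 4 overlapped with them. Slc13a4, a sulfate transporter of the same membranes, likewise ranged from -1.69 to 1.36 in the OVX arrays. The mean log2 level of the 9 genes, relative to its mean over the 8 arrays, was between 0.27 and 0.73 in the CUMS arrays and between -1.49 and 0.25 in the OVX arrays. Without OVX mouse 2 the median difference was 0.665, over the 10 genes then measured in place of these 9.

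The 14 markers of endothelium and pericytes all had a positive difference with a median of 0.13, and Flt1 (0.34) and Esam (0.31) passed an unadjusted p under 0.05, both without overlap. The next by p, Rgs5 (0.29) and Kdr (0.16), did not at their brightest probes, while a dimmer probe of Kdr differed by 0.63 (SE 0.16, adjusted p = 0.149). In the choroid plexus list, 6 of 10 genes were measured, and Kcnj13, a potassium channel gene of choroid plexus and pigment epithelium, differed by 1.19 (adjusted p = 0.213) with the other members between -1.20 and 0.17. The 9 blood cell markers had a median of 0.01, the 12 astrocyte markers 0.01 and the 15 microglial markers -0.06, with Tyrobp (-0.17) and Trem2 (-0.19) the microglial genes past an unadjusted p under 0.05. The levels of the layer, myelin, meningeal and vascular lists depend on which depth and borders of cortex a sample holds. Their medians, like that of the immediate early genes, lay away from 0 between the same 8 arrays. The mean level of the vascular list overlapped, at -0.0608 to 0.203 in the CUMS arrays and -0.355 to 0.108 in the OVX arrays. The part of these lists in the other differences was not tested.

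**Figure D3:**
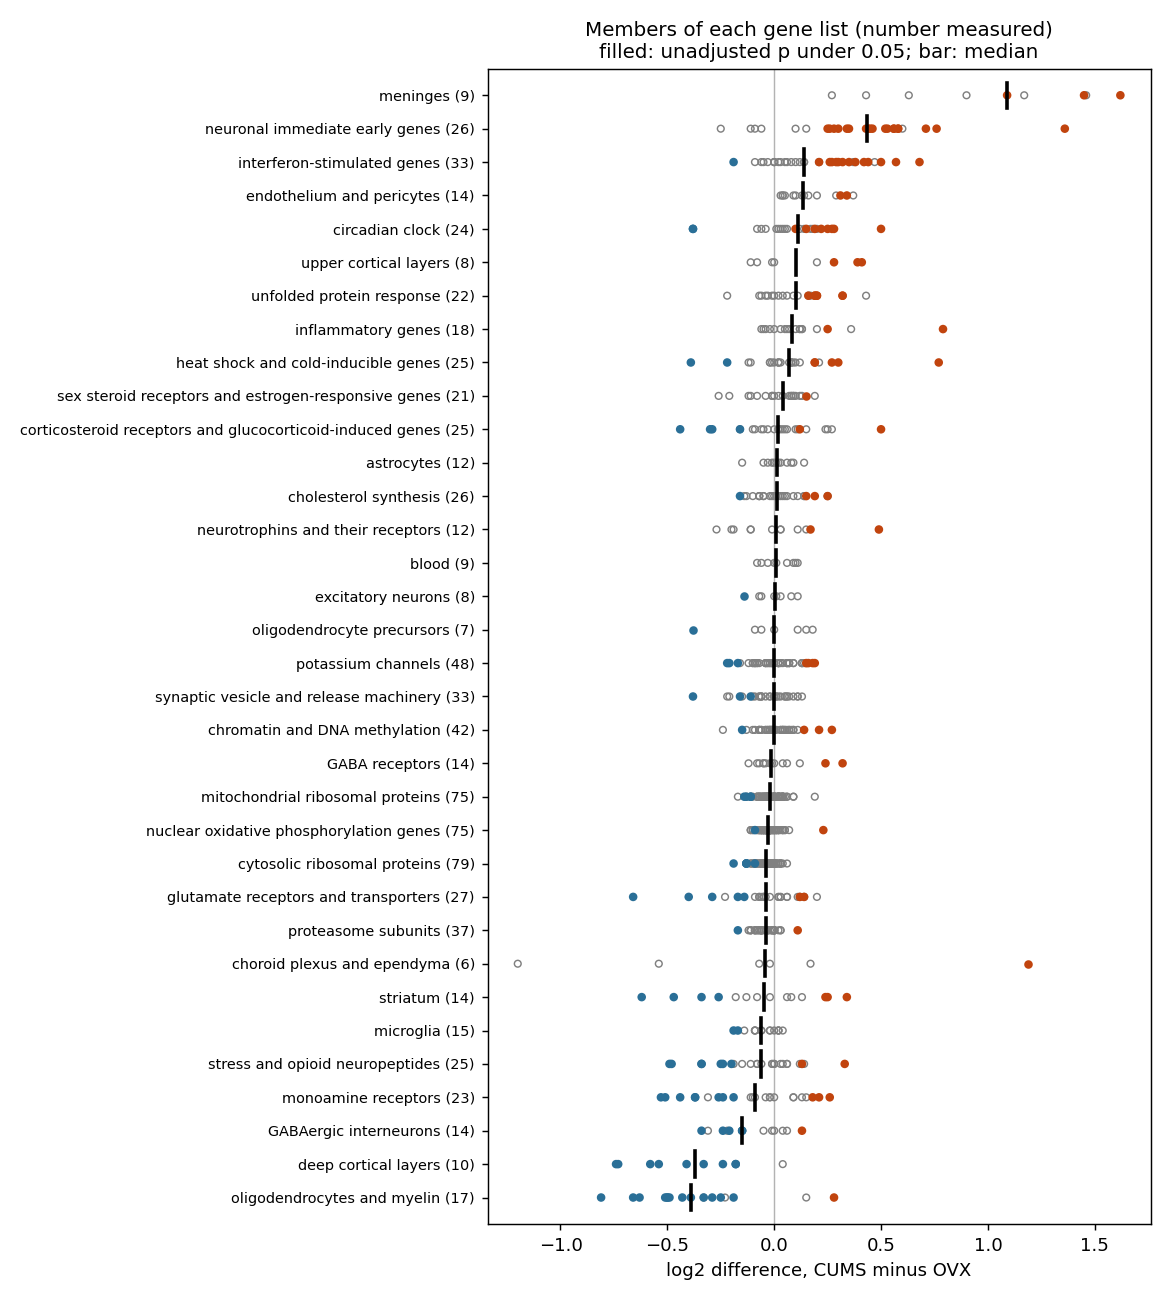
Log2 difference, CUMS minus OVX, of each measured member of 34 gene lists, with the number measured in brackets, filled where the unadjusted p was under 0.05 (red higher, blue lower in CUMS mice) and with a bar for the list median. The medians run from -0.39 for oligodendrocyte and myelin genes and -0.37 for deep layers to 0.44 for immediate early genes and 1.09 for meninges, and most lists lie near 0.

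Several markers of inhibitory neurons were slightly lower in the CUMS mice. Of 14 interneuron genes, 5 were lower at an unadjusted p under 0.05, all without overlap (background 7.27%), and 1 was higher. Sst, the neuropeptide somatostatin, was 5.73, 5.69, 5.67 and 5.77 in the CUMS arrays and 5.94, 5.88, 6.01 and 6.00 in the OVX arrays, a difference of -0.24 (SE 0.05, adjusted p = 0.103). Gad1 and Gad2, the enzymes that make GABA, differed by -0.21 and -0.15, and Tac1, which encodes substance P, by -0.34. Cck was the member on the higher side, at 0.13. The striatal list was split, with 4 of 14 measured genes lower and 3 higher at an unadjusted p under 0.05. Ppp1r1b, which encodes DARPP-32, differed by -0.62 (SE 0.10, adjusted p = 0.0853) and Rasd2, known as Rhes, by 0.25 (SE 0.04, adjusted p = 0.0977), both without overlap. Ppp1r1b is expressed in deep cortical layers as well as in striatum.

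Peptide genes of the stress system were mixed. Of 25 measured neuropeptide and receptor genes, 7 were lower and 2 higher at an unadjusted p under 0.05, with a median of -0.06. Trh, thyrotropin-releasing hormone, was 0.08, 0.03, 0.36 and 0.12 in the CUMS arrays and 0.66, 0.68, 0.54 and 0.64 in the OVX arrays (difference -0.48, SE 0.08, adjusted p = 0.0853). Crhbp, which encodes the binding protein that sequesters corticotropin-releasing hormone, was between 1.14 and 1.29 against between 1.47 and 1.62 (difference -0.34, SE 0.05, adjusted p = 0.0863). Crh itself, the hormone, differed by 0.06 (SE 0.09, adjusted p = 0.775). Of 23 measured monoamine receptor genes, 8 were lower and 3 higher at an unadjusted p under 0.05. Drd5, a dopamine receptor, differed by -0.53 (adjusted p = 0.119) and Htr1f, a serotonin receptor, by -0.24 (adjusted p = 0.164), while the adrenergic receptors Adra2c and Adrb1 differed by 0.21 (adjusted p = 0.119) and 0.26 (adjusted p = 0.188).

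Transmitter genes outside these lists gave fewer differences. Of 27 measured glutamate receptor and transporter genes, 5 were lower and 2 higher at an unadjusted p under 0.05, with Slc17a6, the vesicular glutamate transporter of thalamic and deep neurons, at -0.66 (adjusted p = 0.106) and the kainate receptor subunit Grik1 at -0.40 (adjusted p = 0.0853). Grik3 (-0.17) and Grin2d (-0.29) completed the 4 of lowest p, all without overlap. Of 14 GABA receptor genes, Gabra2 (0.32) and Gabbr2 (0.24) were the 2 past the unadjusted threshold. Of 33 measured genes of synaptic release, 3 were lower and 0 higher, a share on the lower side near the 9.54% of all genes. Rab3b differed by -0.38 (adjusted p = 0.0977) and Vamp2, a SNARE protein of vesicles, by -0.16 (adjusted p = 0.173). Of 12 measured neurotrophin genes, Ntf5 (0.49) and Vgf (0.17) passed the unadjusted threshold and Bdnf did not.

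Interferon-stimulated genes were higher in the CUMS mice, at low levels. Of 35 genes, 33 were measured, of which 13 were higher at an unadjusted p under 0.05 (background 7.99%), 9 of them without overlap, and 1 was lower. The median was 0.14. With spike-in scaling it was 0.0837, against a median of -0.0704 over all genes. Parp14 differed by 0.35, Ifit3 by 0.32, Oas1a by 0.50 and Oasl2 by 0.57, each without overlap and with adjusted p-values between 0.122 and 0.148. Oasl2, a relative of the enzymes that make the messenger 2-5A, was -1.55, -1.23, -1.15 and -1.58 in the CUMS arrays and -1.81, -2.19, -1.66 and -2.12 in the OVX arrays. Ifit1, which binds viral RNA, was between -3.16 and -3.04 in the CUMS arrays and -4.08, -3.96, -3.17 and -3.87 in the OVX arrays, so that OVX mouse 3 lay next to the CUMS values. That mouse had the highest mean level of the list among the OVX arrays, 0.081, inside the CUMS range of 0.0351 to 0.187. Without that mouse the median was 0.237.

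The core of the interferon response element, GAAANNGAAA on either strand, was in 13 of 28 promoters of the 24 list genes found in the RefSeq table (46.4%) and in 3.44% of all promoters. Stretches of 3 members with more than 1 match are shown, with the matches in capitals.
Ifit1, chr19:34640760-34640838, plus strand: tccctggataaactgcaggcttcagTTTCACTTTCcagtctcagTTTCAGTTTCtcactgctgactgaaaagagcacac
Ifit3, chr19:34583348-34583441, plus strand: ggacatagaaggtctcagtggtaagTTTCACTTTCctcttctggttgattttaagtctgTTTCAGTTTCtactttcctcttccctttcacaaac
Isg15, chr4:156200850-156200921, minus strand: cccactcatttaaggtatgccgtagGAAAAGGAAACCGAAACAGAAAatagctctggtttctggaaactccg
Isg15, a ubiquitin-like protein of the same response, was 0.47, 0.97, 0.58 and 0.47 in the CUMS arrays and 0.03, 0.12, 0.43 and 0.15 in the OVX arrays, a difference of 0.44 (SE 0.13, adjusted p = 0.188). Of 18 measured inflammatory genes, Tlr4 (0.79, adjusted p = 0.2) and Casp1 (0.25, adjusted p = 0.208) passed an unadjusted p under 0.05, and the Tlr4 value of CUMS mouse 3, -2.53, stood apart from the others of its group at -3.63 to -3.47.

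Some clock genes were higher in the CUMS mice. Of 24 genes, all measured, 8 were higher at an unadjusted p under 0.05 (background 7.99%) and 2 lower (background 9.54%), with a median of 0.11. With spike-in scaling 2 were higher and 2 lower, with a median of 0.0534 against -0.0704 over all genes. The same scaling gave 668 higher and 3153 lower over all probes, so the shares of the main fit are no background for it. Per2, a repressor of the clock, was -0.17, -0.31, -0.30 and -0.55 in the CUMS arrays and -0.96, -1.04, -0.73 and -0.62 in the OVX arrays (difference 0.50, SE 0.11, adjusted p = 0.117). Cry1, its partner, differed by 0.27 and the output factor Hlf by 0.19, both without overlap. Per1, which belongs to the immediate early list as well, differed by 0.25 (SE 0.10, adjusted p = 0.272) with overlap. The study's methods give more than 1 daytime window for sampling, the hour of each mouse was not given in the sources used here, and the stress schedule itself altered the light cycle. The part of these in the clock genes was not tested. The E-box CACGTG was in 6 of 28 promoters of the 19 clock genes found in the RefSeq table (21.4%) and in 7.15% of all promoters, and 2 stretches from it are shown with the E-box in capitals.
Per1, chr11:69098758-69098813, plus strand: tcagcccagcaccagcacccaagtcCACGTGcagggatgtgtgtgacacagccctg
Cry1, chr10:85185084-85185139, minus strand: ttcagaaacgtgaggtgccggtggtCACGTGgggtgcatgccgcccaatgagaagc

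Protein folding genes differed in part. Of 22 genes of the unfolded protein response, 7 were higher at an unadjusted p under 0.05 and 0 lower, with a median of 0.10, and the 4 of lowest p were Creld2 (0.32), Herpud1 (0.20), the chaperone Hspa5 (0.19) and Pdia6 (0.16), each overlapping between groups. Of 25 measured heat shock and cold-inducible genes, 5 were higher and 2 lower. The lowest p was that of Srsf5 (-0.39, adjusted p = 0.0828), which was lower without overlap, and the other lower member was the cold-inducible Cirbp (-0.22, adjusted p = 0.273). Dnajb5 differed by 0.30 and Dnajb1 by 0.27. Hspb1, a small heat shock protein of vessels and glia, was between 3.36 and 3.96 in the CUMS arrays and between 2.30 and 3.43 in the OVX arrays, a difference of 0.77 (SE 0.23, adjusted p = 0.189).

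The hormone receptor genes gave small differences with wide overlap. Esr1, the estrogen receptor alpha, was between -2.23 and -1.76 in the CUMS arrays and between -2.13 and -1.91 in the OVX arrays, a difference of -0.01 (SE 0.11, adjusted p = 0.987). Esr2, the beta receptor, differed by -0.11 (SE 0.11, adjusted p = 0.662) and Pgr, the progesterone receptor and a classical estrogen target, by 0.08 (SE 0.06, adjusted p = 0.578). Of 21 measured genes of the sex steroid list, 1 passed an unadjusted p under 0.05, the estrogen-related receptor Esrra (0.15, adjusted p = 0.224), followed by Ncoa2 (0.10), Ccnd1 (0.19) and Ebag9 (-0.21), and the median was 0.04.

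Nr3c1, the glucocorticoid receptor, was between 4.25 and 4.47 in the OVX arrays, with all 4 CUMS arrays inside that range (difference -0.00, SE 0.06, adjusted p = 0.987). Nr3c2, the mineralocorticoid receptor, differed by -0.29 (SE 0.11, adjusted p = 0.252), with 1.22-fold more signal in OVX mice and an overlap of the ranges. The glucocorticoid-induced genes Fkbp5 (-0.16, adjusted p = 0.584), Sgk1 (-0.05, adjusted p = 0.891) and Tsc22d3 (-0.10, adjusted p = 0.792) were not separated. For Tsc22d3, OVX mouse 4 stood at 4.15 and the other OVX mice between 3.44 and 3.55. Of the 25 genes of this list, all measured, 2 were higher and 4 lower at an unadjusted p under 0.05, with a median of 0.02. The 4 of lowest p were Mt2 (-0.44), Nr3c2, Errfi1 (0.12) and Tgm2 (0.50).

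Housekeeping lists had medians near 0 and mostly negative signs. The medians were -0.04 for 79 cytosolic ribosomal proteins, -0.02 for 75 mitochondrial ribosomal proteins, -0.03 for 75 nuclear oxidative phosphorylation genes, -0.04 for 37 proteasome subunits and 0.00 for 42 chromatin genes. The difference was negative in 66 of the 79, 48 of the 75, 57 of the 75 and 30 of the 37 genes of the first 4 lists, against 8349 of all 15453 genes. At an unadjusted p under 0.05, 6, 4, 1 and 1 of them were lower, each a smaller share than the 9.54% of all genes. In cholesterol synthesis the median was 0.01 over 26 genes, and Cyp51 (0.25) was higher without overlap. The potassium channel list had a median of 0.00 over 48 genes.

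The other 2 mPFC slides held related pairs of groups and shared no array with this comparison. Slide 1 held 2 CUMS mice and 6 control mice, which were sham-operated and not stressed, and slide 3 held 6 OVX+CUMS mice and 2 OVX mice, so that within each of them the labels of the groups differed in stress alone. They also differed in slide row: both CUMS arrays of slide 1 lay in row 2 with 2 of the 6 controls, and both OVX arrays of slide 3 lay in row 1 with 2 of the 6 OVX+CUMS arrays. Neither gave a probe past the adjusted threshold among the same probes (limma, lowest adjusted p 0.876 and 1), with 1487 and 651 at an unadjusted p under 0.05. The immediate early genes were higher in the stressed mice of slide 1 in 26 of 26 members, with a median of 0.305, against 7330 positive of all 15453 genes. The mean level of the list nevertheless overlapped there, since control mouse 5, at 0.305, lay above both CUMS mice, at 0.289 and 0.252. On slide 3 they were higher in 17 of 26, with a median of 0.131. Arc differed by 1.06 on slide 1 and by 0.32 on slide 3, Nr4a1 by 0.64 and 0.20, Dusp6 by 0.35 and 0.19, and Fos by 0.59 and 0.34.

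The other lists varied in how alike they were between slides. Meningeal genes had a median of 1.09 on slide 2 but -0.333 on slide 1 and -0.128 on slide 3. Myelin genes had 0.0731 and -0.352, deep-layer genes -0.0304 and -0.221, and interferon-stimulated genes -0.046 and 0.0587 on slides 1 and 3. Upper-layer genes had 0.0629 and 0.0922, against 0.101 on slide 2. Genes of the unfolded protein response had 0.165 and 0.0538, against 0.0975. Clock genes had 0.058 and 0.101, and Per2 was higher in the stressed mice by 0.44 and 0.52, near its 0.50 on slide 2. Over the 2708 genes at an unadjusted p under 0.05 on slide 2, the sign was the same for 68% on slide 1 and 64.5% on slide 3, and over all 15453 genes for 56.9% and 54.2%.

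**Figure D4:**
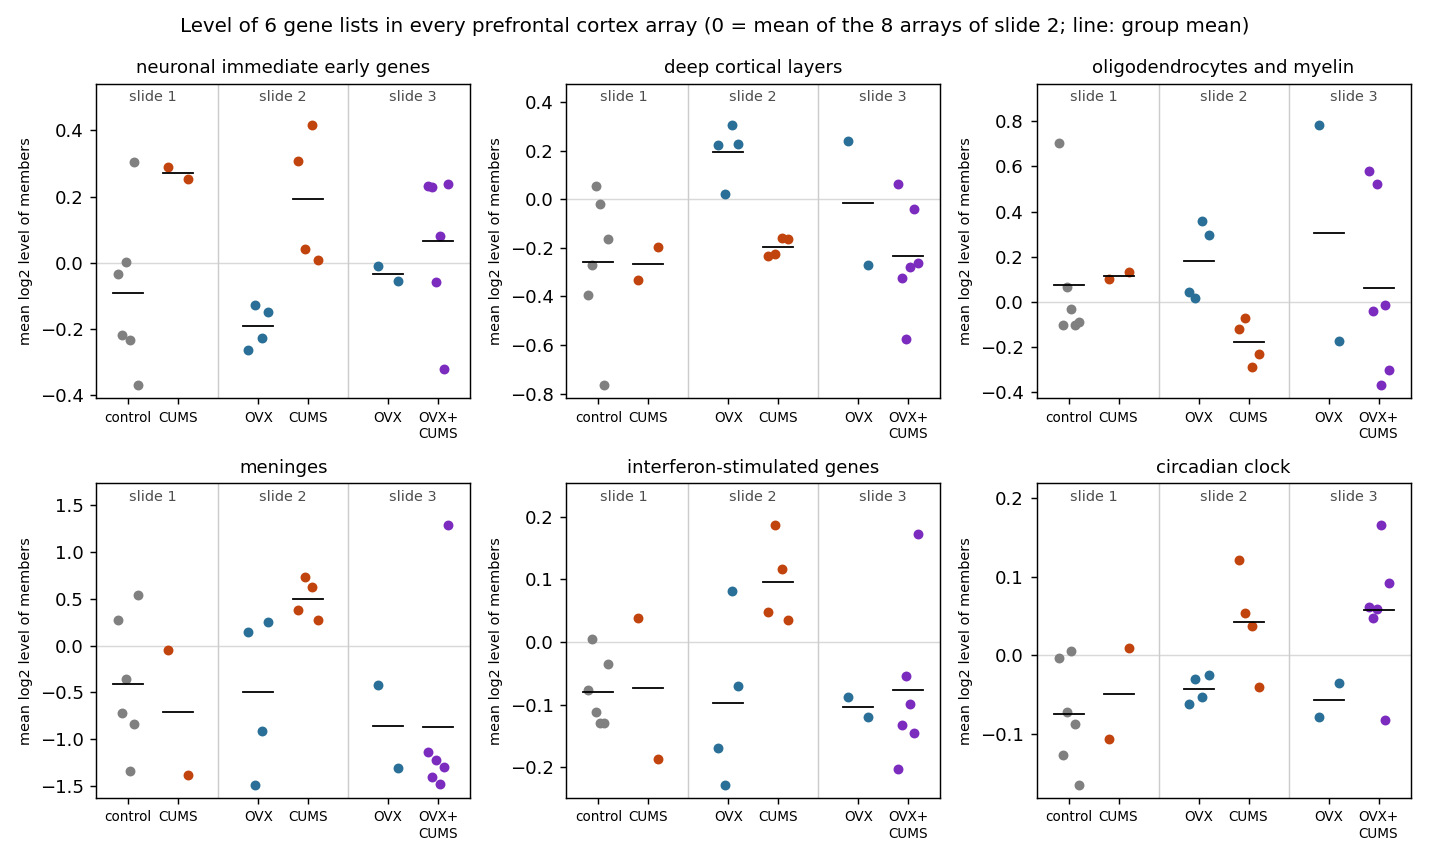
Mean log2 level of the members of 6 gene lists in each of the 24 mPFC arrays, by slide and group, relative to the mean of the 8 arrays of slide 2 (middle of each panel), with lines for group means. The immediate early gene level was between 0.01 and 0.42 in the 4 CUMS arrays and between -0.27 and -0.13 in the 4 OVX arrays of slide 2. The CUMS arrays of slide 1 lie at 0.289 and 0.252, below control mouse 5 of that slide at 0.305. Control mouse 1 stands far from the other controls in the myelin panel, at 0.704, and OVX+CUMS mouse 6 far from its group in the meningeal panel, at 1.29. The meningeal levels of the controls spread from -1.34 to 0.543, and the myelin levels of the OVX+CUMS mice from -0.369 to 0.581.

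Arrays of the same group in different rows of a slide gave a measure of the row. Between the 4 control arrays in row 1 and the 2 in row 2 of slide 1, 657 probes passed the adjusted threshold, and between the 2 OVX+CUMS arrays in row 1 and the 4 in row 2 of slide 3, 0 passed, with 782 at an unadjusted p under 0.05 (limma). In the row comparisons, taken as row 1 minus row 2 to match the layout of slide 2, the immediate early genes had medians of -0.0555 and 0.266, the deep-layer genes 0.24 and 0.0934, the myelin genes 0.257 and 0.327 and the meningeal genes -0.47 and -0.592. Arc differed between rows by 0.01 and 0.53, and Fos by 0.07 and 0.51. The slide row term used above was estimated from these same row comparisons, so its results are no separate measure of the row. The part of slide row in the differences on slide 2 was not tested. Since these rows hold different mice, row and mouse cannot be told apart in them.

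Blood of the same 8 mice was hybridised in the same layout on another slide. There, 11997 of 24901 probes well above background passed the adjusted threshold (48.2%, limma), against 0% in the mPFC. All 8 of these blood arrays carried the scanner software's flag for evaluation, unlike the mPFC arrays, and their 75th percentile of signal was between 75.2 and 104.9 in CUMS mice and between 110.4 and 145.8 in OVX mice, without overlap. The part of signal strength in the blood calls was not tested. Of the 15453 mPFC genes, 11079 had their probe measured in blood, and the sign of the difference was the same in 52.4%. For the 1730 of these at an unadjusted p under 0.05 in the mPFC, it was the same in 53%.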

How the data were processed

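Total RNA of 8 mPFC samples had been labelled with Cy3 and hybridised to one-colour Agilent SurePrint G3 Mouse arrays. Spot intensities were deposited by the authors as Feature Extraction 10.7.3.1 output, in which the processed signal is background-subtracted per the file headers. The authors also deposited log2 values shifted to the 75th percentile of each array, which differ from those used here by 1 offset for each array, within 0.001 for 99.83% of values. Here, log2 of the processed signal minus the 75th percentile of each array was used, control and outlier spots were left out, and probes well above background on all 8 arrays were kept. Between 124 and 180 spots were left out per array. No spot was saturated, and the number of arrays limits the precision. Groups were compared with limma 3.58.1 in R 4.3.3 (moderated, two-sided, Benjamini-Hochberg adjustment over 30343 probes), with exact permutation p-values for single genes. The script was tested on simulated data. Probes were named through their accessions in the RefSeq gene table, with 21344 named and 8999 not. Promoter letters came from RefSeq (GRCm38.p6).

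The members and the gene lists were chosen with earlier results of these data known. Genes named were the 12 of lowest p on each side, since none passed the threshold, up to 4 of lowest p per list, and a set of hormone and stress genes. Calb1, Camk2a, Cck, Cirbp, Cux1, Dusp1, Etv1, Fosb, Ier5, Ifit1, Isg15, Klf4, Lamp5, Mbp, Mobp, Npas4, Nr4a2, Opalin, Otof and Sik1 fall outside this rule and were named after their values were seen. Alternatives were normexp correction, quantile normalization, other percentiles and spike-in scaling, other probe filters, the authors' values, no moderation, all 24 mPFC arrays with slide as a block, all 6 against 6 arrays, a replicate block and leaving out each array. A slide row term was added after the data were seen. Human samples of the study were not analysed here. Some genes that the naming rule picks are not reported here.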

Additional observations from a re-analysis of the deposited data

Results flagged for a closer look

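In 15 of 266 gene groups and 68 list groups of 4 arrays, 1 array stood far from the other 3 by Dixon's criterion, and chance gives about 1 in 20 such groups. Among the CUMS mice, mouse 5 stood at 2.34 for Bdnf (others 1.87 to 1.91), 1.46 for Crh (1.10 to 1.15) and 4.47 for Dnajb5 (4.36 in the others), and mouse 3 at 2.09 for Bcas1 (2.28 to 2.32), 3.68 for Gad1 (3.75 to 3.76) and -2.53 for Tlr4 (-3.63 to -3.47). Among the OVX mice, mouse 3 stood at 1.94 for Egr2, an immediate early gene (0.71 to 0.87), and at -0.147 for Xpa (-0.31 to -0.284). OVX mouse 4 stood at 0.686 for Ebag9 (1.08 to 1.15) and at 4.15 for Tsc22d3 (3.44 to 3.55).

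Of the mean list levels, on the log2 scale with 0 at the mean of the 8 arrays, the corticosteroid list was 0.295 in OVX mouse 4 (-0.118 to -0.098 in the other OVX mice). OVX mouse 3 had -0.0698 for cytosolic ribosomal proteins (0.0422 to 0.0646) and 0.136 for cholesterol synthesis (-0.0684 to -0.0537). CUMS mouse 4 had 0.000156 for interneuron markers (-0.0814 to -0.0725) and CUMS mouse 5 had 0.0308 for oxidative phosphorylation genes (-0.0306 to -0.0212).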

How the results depend on the processing

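The 0 probes called at an adjusted p under 0.05 (limma, 4786 at an unadjusted p under 0.05) became 168 with normexp correction, 10 with quantile normalization, 3 with the percentile over detected probes, 5999 with no detection filter, 12 with the study's filter, 5 with detection on all 24 mPFC arrays, 9 with 6 against 6 arrays and 1 with a slide row term. Leaving out 1 array gave 0 to 22 called, 1718 to 2163 higher and 2124 to 2727 lower at an unadjusted p under 0.05. Against 2111 higher and 2675 lower, spike-in scaling gave 668 higher, no detection filter 9591 lower, the slide block 1326 and 1764, and the row term 1096 and 1389. The clock median of 0.114 was 0.0534 with spike-in scaling, 0.0536 with 6 against 6 arrays and 0.0473 with the row term, which also gave 0.245 for upper layers, -0.475 for deep layers, -0.684 for myelin, 0.272 for interferon-stimulated genes and 0.332 for immediate early genes. At an unadjusted p under 0.05, the 19 immediate early genes higher became 5 (and 1 lower) with the row term, 13 with the slide block and 15 with spike-in scaling. The 13 myelin and 9 deep-layer genes lower became 3 and 4 with the slide block, and 10 and 6 with the row term. The slide block left the medians of these lists unchanged, since it alters the spread and not the differences. Spike-in scaling gave medians of 0.0403 for upper layers and 0.0837 for interferon-stimulated genes. It also moved the median of all genes from -0.00996 to -0.0704. Fkbp5 turned to 0.003 with 6 against 6 arrays. The cause was not tested. Leaving out 1 array gave medians of 0.339 to 0.51 for immediate early genes, -0.426 to -0.342 for deep layers, 0.0405 to 0.18 for upper layers, -0.49 to -0.33 for myelin, 0.665 to 1.3 for meninges, 0.108 to 0.237 for interferon-stimulated genes and 0.0955 to 0.133 for the clock. The groups share the numbers 3 and 4 only, and the deviations of same-numbered arrays had r of -0.055 and -0.056, so they share a number and nothing more was assumed. The replicate block called 0 probes, gave 1285 lower and a clock median of 0.169, left 10 immediate early and 3 interferon-stimulated genes higher (13 without it), and turned Crh to -0.0983 and Esr2 to 0.0967. Of the comparisons of the 133 genes followed with their alternatives, 123 passed the threshold. A further 3 turned direction with a difference beyond its SE in the main fit or the alternative. The other 2662 stayed on the same side of the threshold, and a change of sign within the SE of both fits is counted among them. Probes near background are limited by signal, and the detection filter leaves them out.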
